A study of Mus musculus with 6 samples.

Results

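The genes for the proteins of the mitochondrial ribosome were examined in RNA-seq data of mouse cells with and without knockdown of CTCF. The cells were labelled as female germline stem cells (FGSCs). A gene was taken as a member when it was protein-coding, had a RefSeq accession in the deposited expression table, and had a symbol that began with Mrpl or Mrps followed by a digit. This rule used names only and gave 78 genes of the 24732 symbols in the table, of which 49 began with Mrpl and 29 with Mrps. The samples were 3 controls and 3 samples of the shCTCF group. All of them were labelled as FGSCs of strain C57BL/6 at more than 20 passages, grown on a feeder layer of mitotically inactivated STO fibroblasts. In the shCTCF group, a short hairpin RNA (shRNA) against Ctcf was delivered by a lentivirus, and infected cells were selected with puromycin. What the controls received was not given in the labels. The labels do not say whether replicates came from separate cultures, so that the p-values measure only the spread between these samples, which may be technical.

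Mitochondria keep a small genome that encodes core subunits of the respiratory chain, and they translate its mRNAs on a ribosome of their own. The RNA of this ribosome is made inside the organelle, but all of its proteins are encoded in the nucleus, made in the cytosol and imported. A large subunit joins the amino acids and a small subunit reads the mRNA. In each subunit some proteins have a counterpart in the bacterial ribosome, whereas others were added during the evolution of mitochondria. The subunit names in the symbols are historical. Mrps30 and Mrps18a were assigned here to the large subunit, where their proteins are found, and Mrps36 was kept apart because its protein is now known as a subunit of the 2-oxoglutarate dehydrogenase complex. The 78 members were thus 30 large subunit genes with a bacterial counterpart, 21 large subunit genes specific to mitochondria, 16 small subunit genes with a counterpart, 10 small subunit genes specific to mitochondria, and Mrps36.

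The libraries matched their group labels for the targeted gene. Ctcf, the gene of the zinc finger protein that anchors chromatin loops, had 58.2, 56.1 and 53.5 FPKM (fragments scaled to the length of the transcript and to the number of mapped fragments) in the controls and 0.740, 0.550 and 0.629 FPKM in the shCTCF group. The groups did not overlap, and the log2 fold change was -5.12 ± 0.09 (SE, n = 3 per group, limma adjusted p = 1.1e-08), although an exact permutation test of 3 against 3 samples cannot give a p below 0.1. Total counts lay between 1686052 and 7044272 fragments per sample, and control replicate 2 was the smallest. Ctcf had 0 counts in all samples, so that its fall could be read from FPKM only. Of 10 FGSC markers, 2 reached a mean of 1 FPKM, Etv5 and Ifitm3. The sum of all 10 was 19.5 to 19.8 FPKM for the controls and 25.7 to 27.0 FPKM for the shCTCF samples. Etv5 was lower, from 17.3 to 14.25 FPKM in the mean, and Ifitm3 was higher, from 0.737 to 10.8 FPKM. Ddx4, Pou5f1 and Dazl were at 0 FPKM in all controls and at most 0.182 FPKM in the shCTCF samples. Dppa3, Gfra1 and Nanos3 were at 0 FPKM in all samples. Of 16 mast cell and myeloid markers, 10 reached a mean of 1 FPKM. The sum of all 16 was 1714 to 1760 FPKM in the controls and 1755 to 1837 FPKM in the shCTCF group, and Fcer1a was at 0 in all samples. Kit and Gata2 led them, with means of 574.9 and 500.8 FPKM for the controls. Within this sum the markers moved both ways, with 2 lower and 5 higher. The protease genes Ctsg and Cpa3 fell from 150.7 to 2.22 FPKM and from 280.7 to 88.0 FPKM in the mean, whereas Hdc, the enzyme gene of histamine synthesis, rose from 4.25 to 87.2 FPKM. The labelled cell type is therefore used here as a label. The 16 fibroblast markers, which could come from the feeder layer, summed to 12.5 to 13.3 FPKM in the controls and 29.7 to 31.8 FPKM in the shCTCF group, with Col3a1, Lum and Loxl1 at 0. These also went both ways, with 3 lower and 4 higher, since Col6a1 rose from 0.144 to 15.3 FPKM and Mmp2 from 0.136 to 7.03 FPKM, whereas Pdgfrb fell from 6.09 to 2.16 FPKM, Fn1 from 2.22 to 0.0266 FPKM, and Dcn from 2.71 FPKM to a listed 0. The part of other cell types in the results was not tested, and in these bulk samples fewer cells of a type and less RNA per cell cannot be told apart.

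The mRNA of mitochondrial ribosomal proteins was lower as a whole in the shCTCF group. The members together gave 3091, 3388 and 3355 FPKM in the controls and 2208, 2296 and 2243 FPKM in the shCTCF group. All shCTCF samples lay below all controls, with means of 3278 ± 163 and 2249 ± 44.2 FPKM (SD, n = 3), so that the shCTCF mean was 68.6% of the control mean. The total FPKM of all symbols was 449500 ± 9287 in the controls and 453900 ± 1148 in the shCTCF group, so that the members made up 0.729% ± 0.0215 of it in the controls and 0.496% ± 0.00907 after knockdown. The median FPKM over the genes tested was 14.2 in the controls and 12.5 in the shCTCF group. With a common median FPKM set for the samples, the summed FPKM of the members differed by -22.1% in place of -31.4%.

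Both subunits were lower by a similar share. The large subunit genes summed to 2226 ± 120 FPKM in the controls and 1526 ± 18.5 FPKM in the shCTCF group, and the small subunit genes to 1035 ± 44.6 and 713.9 ± 28.1 FPKM (SD, n = 3). The ratio of large to small was 2.12, 2.17 and 2.15 for the control samples, compared with 2.21, 2.09 and 2.12 for the shCTCF samples, and these values overlapped. The sums of the genes specific to mitochondria were further below the control than those of the genes with a bacterial counterpart. In the large subunit, the shCTCF sum was 60.0% of the control for the mitochondria-specific genes and 74.3% for the others. In the small subunit, the corresponding values were 56.5% and 75.6%. Abundant genes weigh most in such sums. In the large subunit, the mitochondria-specific Mrpl54 fell from 147.2 to 44.03 FPKM in the mean, and Mrpl10, with a counterpart, rose from 70.73 to 128.2 FPKM. The median log2 fold changes of the large subunit classes did not show the gap, at -0.53 and -0.56 on FPKM and -0.28 and -0.41 on counts. In the small subunit, the medians of -0.79 and -0.43 on FPKM had the order of the sums. The difference between these classes was not tested, and with 3 against 3 samples no permutation test of a sum could give a p below 0.1.

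**Figure D1:**
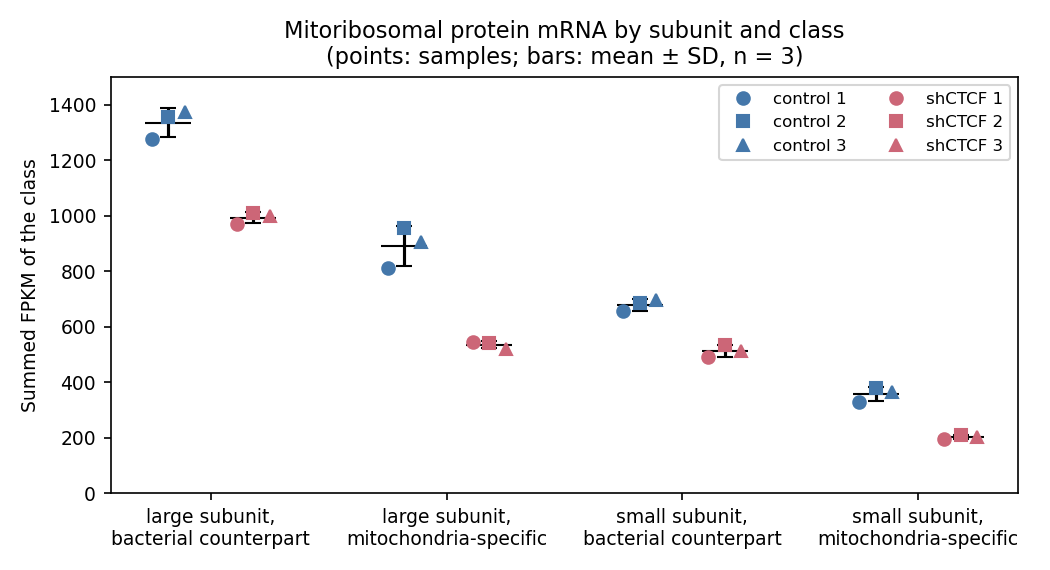
Summed FPKM of the members (vertical axis, linear from 0) in each sample, by subunit and by whether the proteins have a bacterial counterpart. Points are samples, horizontal lines with error bars are the mean ± SD of 3 samples, and in each of the 4 classes all shCTCF samples lie below all controls, for example 195.2 to 208.6 against 328.5 to 379.8 FPKM for the mitochondria-specific genes of the small subunit.

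Members were tested one by one with limma on log2(FPKM + 1), in a fit over all genes whose mean reached 1 FPKM. Of the 78 members, 77 passed this filter. Of these, 57 were lower in the shCTCF group, 5 were higher, and 15 were not called (adjusted p under 0.05). Among all 9976 genes tested, 73% were called in either direction, with 44.2% lower and 28.8% higher, so that the share of members called lower, 74.0%, was above the background, and the share called higher, 6.49%, was below it. The median log2 fold change was -0.56 over the members and -0.17 over all genes tested, and the quartiles of the members were -0.86 and -0.23. A log2 fold change of at least 1 in size was reached by 14 members downward and 1 upward, with 14.9% and 11.3% of all genes as background. The values of the groups did not overlap for 57 members that were lower and 3 that were higher (background 45.8% and 30.8%), and they overlapped for 17. Setting a common median for the samples moved the median of all genes to -0.01 and that of the members to -0.39. With this scaling 48 members were lower and 10 higher, and the 48 were all among the 57. The shares of all genes called with this scaling are not given here, so that these counts have no background.

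**Figure D2:**
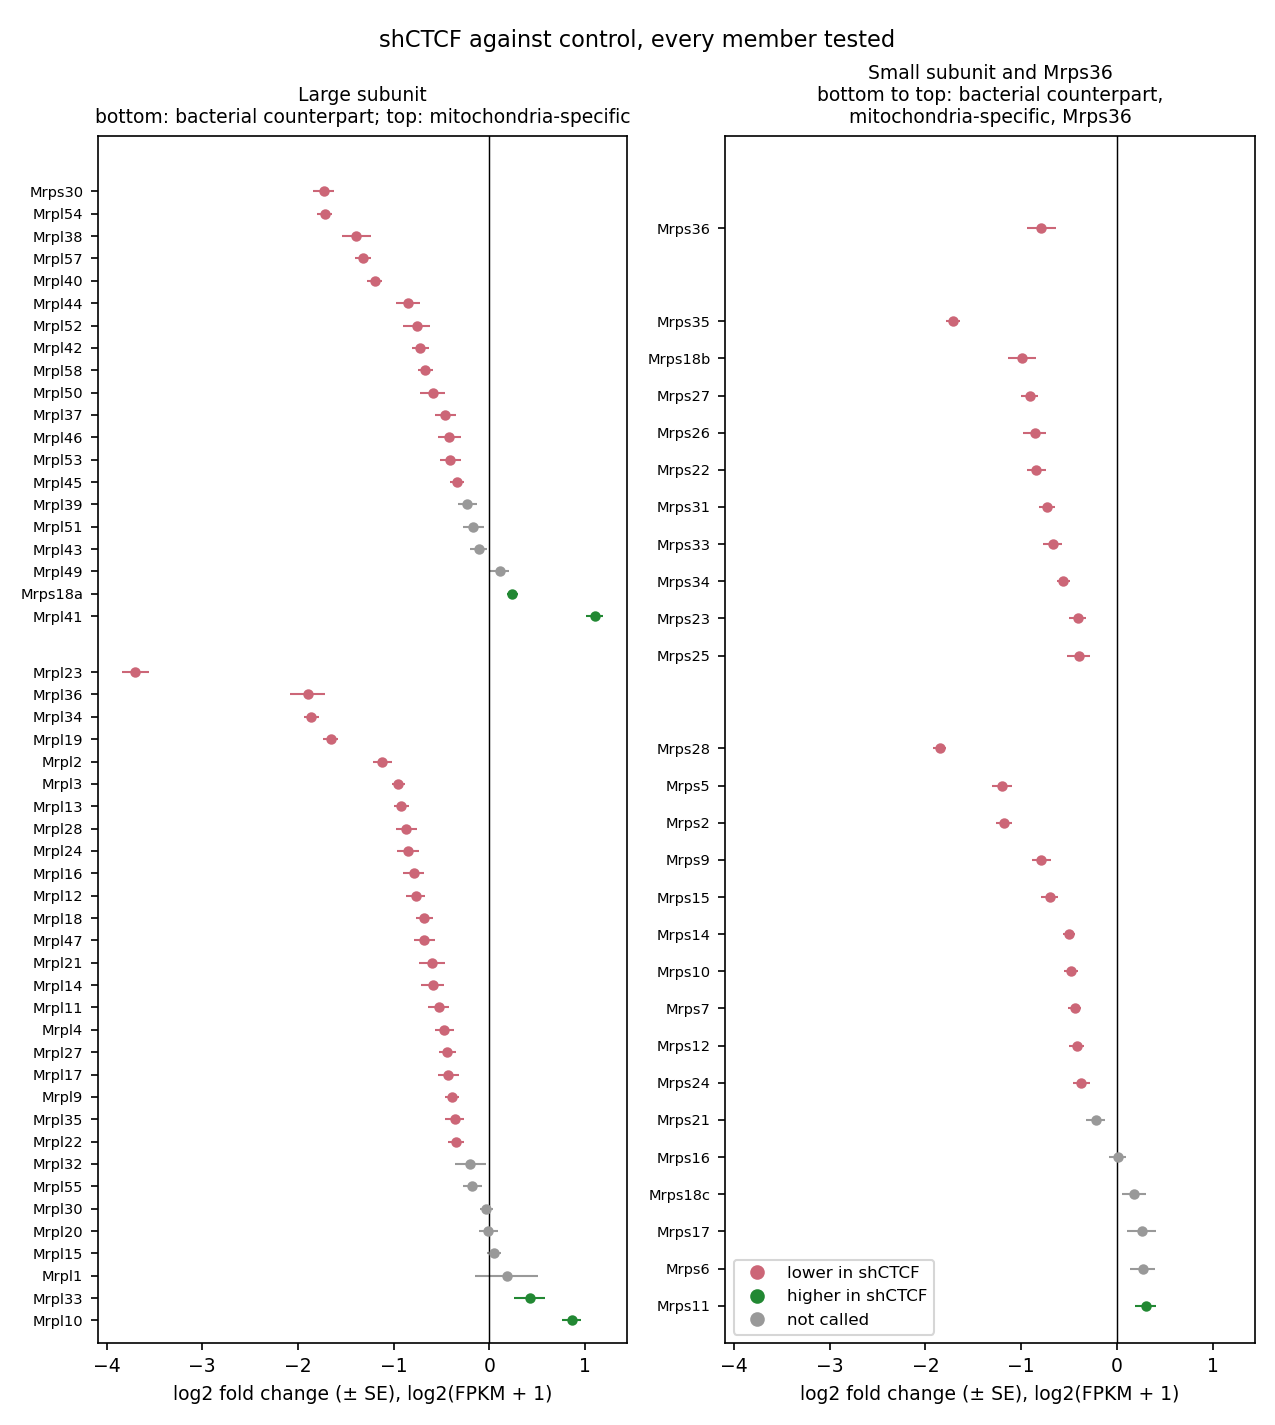
Log2 fold change of shCTCF against control on the log2(FPKM + 1) scale for each of the 77 members tested, with its standard error, by subunit and class. Red points were called lower, green points higher and grey points neither; all 10 mitochondria-specific genes of the small subunit are red, Mrpl23 stands far to the left at -3.70, and Mrpl41 is the farthest to the right at 1.10.

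The members were also counted by class, and differences between the classes were not tested. All 10 mitochondria-specific genes of the small subunit were lower, with log2 fold changes between -1.71 and -0.40 and a median of -0.79. Of the 16 small subunit genes with a bacterial counterpart, 10 were lower, 1 was higher and 5 were not called, and the median was -0.43. In the large subunit, 22 of 30 genes with a counterpart were lower and 2 were higher, with a median of -0.56. Of the mitochondria-specific genes of the large subunit, 14 of 20 tested were lower and 2 were higher, with a median of -0.53. On counts the order of the medians was not the same. There, 6 of 7 mitochondria-specific genes of the small subunit were lower, with a median of -0.68, and the medians were -0.49 for the small subunit genes with a counterpart, -0.41 for the large subunit genes with a counterpart and -0.28 for the mitochondria-specific genes of the large subunit. On FPKM the range of the large subunit, from -3.70 to 1.10, held both the largest fall and the largest rise.

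The level of the members was lower over most of their range. In the controls, the mean FPKM of the 77 members had a median of 36.7 with quartiles of 25.7 and 50.6, and in the shCTCF group the median was 22.3 with quartiles of 14.5 and 34.1. FPKM is scaled to the annotated length of the transcript, so that levels of different genes can be compared only as far as that length holds. In the controls, 4 members had more than 100 FPKM, namely Mrpl54 (147.2 ± 13.2), Mrpl42 (124.0 ± 11.1), Mrpl30 (120.0 ± 8.13) and Mrpl12 (116.2 ± 14.6 FPKM, SD, n = 3). The last 3 of these differed by less than the spread between replicates. In the shCTCF group, Mrpl10 (128.2 ± 7.38), Mrpl30 (117.1 ± 2.37) and Mrpl33 (107.9 ± 9.49 FPKM) were the members above 100, so that the order at the top changed. The number of members under 10 FPKM was 4 in the controls and 13 in the shCTCF group.

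Promoter sequences are shown for the members with the largest falls and rises that have an entry in the RefSeq promoter table (build GRCm38.p6), together with the stretch between the start sites of a pair of members that share a promoter. Each is the sequence before the annotated start, up to 150 bases or to the next gene, written 5′ to 3′ on the strand of the gene. Capitals mark matches on either strand to the letters CCGGAAG (the core bound by ETS factors such as GABPA), CACGTG (the E-box bound by MYC), AANATGGCG (YY1) and GCATGCG (NRF1). These are the stretches before Mrpl23 (chr7:142532882-142533031), Mrpl36 (chr13:73330859-73331008) and Mrpl34 (chr8:71464776-71464925), which fell most, before Mrpl41 (chr2:24975099-24975248, minus strand), Mrpl10 (chr11:97041432-97041581) and Mrps18a (chr17:46110854-46111003), which rose most, and between Mrpl46 and Mrps11 (chr7:78783090-78783130, written on the plus strand). The strand is plus where none is given.
Mrpl23: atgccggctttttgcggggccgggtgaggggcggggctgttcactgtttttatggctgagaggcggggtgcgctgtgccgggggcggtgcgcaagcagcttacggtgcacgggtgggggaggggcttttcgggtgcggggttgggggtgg
Mrpl36: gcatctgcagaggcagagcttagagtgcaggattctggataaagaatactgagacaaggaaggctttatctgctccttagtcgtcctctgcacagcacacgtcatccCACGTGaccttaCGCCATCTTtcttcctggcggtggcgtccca
Mrpl34: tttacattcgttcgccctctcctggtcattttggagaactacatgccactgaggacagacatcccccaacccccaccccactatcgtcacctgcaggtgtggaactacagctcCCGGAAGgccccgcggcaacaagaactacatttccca
Mrpl41: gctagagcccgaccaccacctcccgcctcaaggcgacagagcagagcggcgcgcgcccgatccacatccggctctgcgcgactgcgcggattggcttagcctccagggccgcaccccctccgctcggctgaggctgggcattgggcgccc
Mrpl10: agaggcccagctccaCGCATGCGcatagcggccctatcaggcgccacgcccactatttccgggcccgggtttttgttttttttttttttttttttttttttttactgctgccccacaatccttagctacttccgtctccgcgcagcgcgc
Mrps18a: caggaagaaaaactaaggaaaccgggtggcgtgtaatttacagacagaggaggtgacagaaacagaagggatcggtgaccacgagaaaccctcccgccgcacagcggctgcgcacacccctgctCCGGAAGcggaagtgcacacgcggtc
Mrpl46 to Mrps11: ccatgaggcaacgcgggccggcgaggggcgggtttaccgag

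The printed stretch of Mrpl36 held an E-box and a YY1 match, and those of Mrpl34 and Mrps18a held an ETS match, with Mrpl34 among the largest falls and Mrps18a among the rises. The stretch of Mrpl10, among the rises, held an NRF1 match on both strands. The stretches of Mrpl23 and Mrpl41 and the one between Mrpl46 and Mrps11 held none of these letters. Over the 250 bases before the start, 69 members had a promoter entry (all but Mrpl13, Mrpl15, Mrpl19, Mrpl38, Mrpl4, Mrpl54, Mrps28, Mrps34 and Mrps35). The ETS letters were found in 18 of 69 members (26.1%) and in 17.9% of the 8137 promoters of genes tested. The NRF1 letters were found in 8 members (11.6%) and in 6.86% of all. The E-box was found in 5 members (7.25%) against 10.3% of all, and the YY1 letters in 2 (2.90%) against 2.86%. A CTCF core motif was found in 0 members and in 0.909% of all. Among the members called lower, 12 of 49 had the ETS letters (24.5%), and among those called higher or not called, 5 of 19 (26.3%). For the NRF1 letters 4 of 49 (8.16%) and 4 of 19 (21.1%) had a match. Matches were thus present in members of either kind, and most members had none of these letters.

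Many members shared their start region with a gene on the opposite strand. By the mm9 coordinates of the count table, 29 of the 77 members tested (37.7%) had the start of a gene on the other strand within 1000 bases upstream, compared with 16.7% of all 9957 genes tested that had a position. Of the partners of the 29, 24 were tested on FPKM, and 13 were lower and 7 higher, with a median log2 fold change of -0.36. Among all genes tested on FPKM, 44.2% were lower and 28.8% higher, with a median of -0.17. The share of partners called higher was thus near the background. Members and partners were both lower in 9 cases and both higher in 2, and they were called in opposite directions in 5, where the pair Mrpl46 and Mrps11 is counted from each side. The share of such cases over all genes with a partner was not calculated, so that these numbers have no background. Mrpl57 and Ska3, a kinetochore gene whose start lies 76 bases away, were both lower, with log2 fold changes of -1.32 and -1.0. Mrps12 was lower by less than its partner Sars2, the mitochondrial seryl-tRNA synthetase gene, with -0.42 and -1.59. In contrast, Mrps18b was lower at -0.99 and its partner Ppp1r10 rose by 1.75 on the log2 scale.

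Mrpl46 and Mrps11 are members that share such a start region, and their starts lay 42 bases apart. On FPKM they were called in opposite directions. They were singled out after their values were seen. Mrpl46, a large subunit gene, had 22.7, 30.5 and 24.7 FPKM in the controls and 20.6, 17.7 and 18.9 FPKM in the shCTCF group. All shCTCF values were below the controls, and the log2 fold change was -0.42 ± 0.12 (SE, limma adjusted p = 0.0135), but in the count table the change of -0.18 was not called (edgeR adjusted p = 0.212). Mrps11, a small subunit gene, had 15.7, 15.2 and 17.2 FPKM in the controls and 17.1, 21.0 and 21.8 FPKM in the shCTCF group. Control replicate 3 and shCTCF replicate 1 overlapped, and the log2 fold change was 0.30 ± 0.11 (SE, limma adjusted p = 0.0345). Of 16 other settings of the FPKM test, Mrps11 lost its call in 5 (limma adjusted p up to 0.333, with the highest accession only), among them those without control replicate 1, shCTCF replicate 2 or shCTCF replicate 3. Mrpl46 lost its call in 3 (adjusted p up to 0.118, with a common median). Mrps11 had 0 counts in all samples and could not be tested in the count table.

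The largest fall of any member was that of Mrpl23, whose protein has a bacterial counterpart at the exit of the tunnel through which the new chain leaves the ribosome. Mrpl23 (mm9 chr7:149719022-149726647, plus strand) had 48.5, 70.8 and 54.3 FPKM in the controls and 3.65, 3.23 and 3.52 FPKM in the shCTCF group. The lowest control was far above the highest shCTCF sample, and the mean fell to 5.98% of the control. The log2 fold change was -3.70 ± 0.14 (SE, limma adjusted p = 3.31e-07). In the count table control samples had 342, 123 and 421 fragments, compared with 24, 21 and 30 for the shCTCF samples, which gave a log2 fold change of -3.67 (edgeR adjusted p = 3.24e-09). No other member fell by more than 1.90 on this scale.

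The neighbors of Mrpl23 were examined because the gene lies beside an imprinted region known for its control by CTCF, and they were chosen after the value of Mrpl23 was seen. H19 begins 45 kb downstream of the start of Mrpl23 and was listed at 0 FPKM in all samples. Igf2, 133.7 kb downstream, had a mean of 0 FPKM in the controls and 0.0101 FPKM in the shCTCF group. Of the neighbors within 150 kb on either side, only Ctsd, a lysosomal protease gene 145.3 kb upstream, passed the FPKM filter besides Mrpl23. It rose from 177.1 to 847.6 FPKM in the mean, by 2.26 ± 0.09 on the log2 scale (SE, limma adjusted p = 5.75e-07).

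The other members with large falls came from both subunits. Mrpl36, whose protein is a small zinc-binding component of the large subunit, had 30.4, 38.9 and 38.7 FPKM in the controls and 10.98, 9.68 and 6.41 FPKM in the shCTCF group. Mrpl34, also of the large subunit and with a bacterial counterpart, had 35.1, 36.9 and 37.7 FPKM in the controls and 10.01, 8.56 and 9.503 FPKM in the shCTCF group. Mrps28 of the small subunit had 50.1, 49.5 and 46.3 FPKM in the controls and 12.5, 13.0 and 12.9 FPKM in the shCTCF group. The groups were well apart in all of these genes, and the shCTCF samples of Mrps28 lay within 1 FPKM of each other. The log2 fold changes were -1.90 ± 0.18 for Mrpl36, -1.86 ± 0.08 for Mrpl34 and -1.85 ± 0.07 for Mrps28 (SE, limma adjusted p = 4.42e-05, 7.39e-07 and 3.31e-07).

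Among the genes of proteins that only mitochondrial ribosomes have, Mrps30, Mrpl54 and Mrps35 fell to a similar extent. Mrpl54, the member with the highest level in the controls, had 132.8, 158.8 and 149.9 FPKM in the controls and 44.4, 42.2 and 45.5 FPKM in the shCTCF group. Mrps30, named for the small subunit but part of the large one, had 47.9, 42.7 and 50.6 FPKM in the controls and 13.1, 15.5 and 12.03 FPKM in the shCTCF group. Mrps35 of the small subunit had 49.4, 55.5 and 52.4 FPKM in the controls and 14.5, 15.8 and 15.6 FPKM in the shCTCF group. Every shCTCF value of these genes was below every control value. The log2 fold changes were -1.72 ± 0.08, -1.73 ± 0.11 and -1.71 ± 0.07 (SE, limma adjusted p = 9.95e-07, 4.35e-06 and 7.39e-07), and they differed by less than their errors.

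The falls of Mrpl19, Mrpl38 and Mrpl57 completed the 10 largest. Mrpl19, with a bacterial counterpart, fell from 14.1 ± 0.193 to 3.77 ± 0.221 FPKM (SD, n = 3), but its exons overlap those of Gcfc2 on the other strand, and the counting did not use strand. Mrpl38, a component of the central protuberance of the large subunit, had 39.2, 60.2 and 52.4 FPKM in the controls and 18.9, 19.3 and 17.1 FPKM in the shCTCF group. Mrpl57, specific to mitochondria, had 14.9, 15.1 and 15.1 FPKM in the controls and 5.09, 5.67 and 5.56 FPKM in the shCTCF group. The controls of Mrpl38 were spread over a wide range, whereas those of Mrpl57 were nearly equal. The log2 fold changes were -1.66 ± 0.08 for Mrpl19, -1.39 ± 0.15 for Mrpl38 and -1.32 ± 0.08 for Mrpl57. All 10 of these genes were also called lower in the count table, with log2 fold changes from -3.67 to -1.22.

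**Figure D3:**
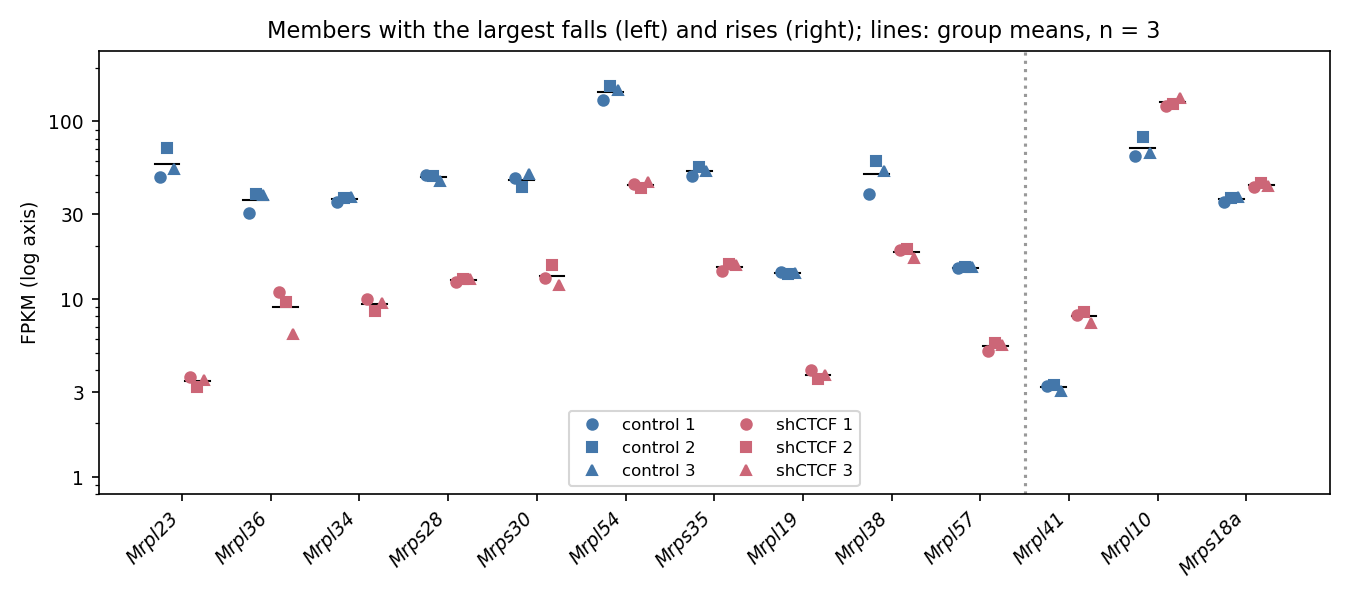
FPKM in each sample (vertical log axis) of the 10 members with the largest falls, left of the dotted line, and the 3 called members with the largest rises and no overlap, right of it. Short lines are group means of 3 samples. The groups do not overlap in any of the 13 genes, and Mrpl23 shows the widest gap, from 57.9 to 3.46 FPKM in the mean.

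Rises without overlap of the groups were found in Mrpl41, Mrpl10 and Mrps18a, which all belong to the large subunit. Mrpl41, which has also been described as a protein that restrains growth and favors apoptosis, had 3.26, 3.28 and 3.05 FPKM in the controls and 8.13, 8.53 and 7.38 FPKM in the shCTCF group. It had the lowest level of the members tested in the controls and rose 2.51-fold, with a log2 fold change of 1.10 ± 0.09 (SE, limma adjusted p = 2.23e-05) and of 1.59 in the count table (edgeR adjusted p = 6.52e-07). Its partner on the other strand, Pnpla7, a lipid hydrolase gene whose start lies 935 bases away, was also higher, at 9.73 FPKM in the controls and 18.4 FPKM in the shCTCF group (log2 fold change 0.87 ± 0.12, limma adjusted p = 0.000367). Mrps18a had 35.3, 37.2 and 37.7 FPKM in the controls and 42.7, 45.3 and 43.2 FPKM in the shCTCF group. This was a small rise with a small spread, with a log2 fold change of 0.24 ± 0.06 (SE, limma adjusted p = 0.00946) and of 0.41 in the count table (edgeR adjusted p = 0.00146). The paralogs of Mrps18a, whose proteins sit in the small subunit, did not share its rise on FPKM. Mrps18b was lower (-0.99 ± 0.15, limma adjusted p = 0.000492), and Mrps18c was not called on FPKM (0.18 ± 0.13, limma adjusted p = 0.251) but higher in the count table (0.28, edgeR adjusted p = 0.0385).

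The proteins of Mrpl10 and Mrpl12 form the stalk of the large subunit, which receives the translation factors, and their mRNAs moved in opposite directions. Mrpl10 had 64.3, 81.8 and 66.1 FPKM in the controls and 122.2, 126.0 and 136.4 FPKM in the shCTCF group, with a log2 fold change of 0.86 ± 0.10 (SE, limma adjusted p = 0.00013). Mrpl12 had 102.8, 131.8 and 114.1 FPKM in the controls and 62.4, 69.4 and 70.7 FPKM in the shCTCF group, with a log2 fold change of -0.77 ± 0.10 (SE, limma adjusted p = 0.000228) and of -0.57 in the count table. In the controls Mrpl12 was above Mrpl10 in every sample, and in the shCTCF group it was below it in every sample. Mrpl10 was listed with 3 accessions. Its main accession had 64.3 to 81.8 FPKM in the controls and 103.1 to 122.2 FPKM in the shCTCF group, and another one was at 0 except in shCTCF replicates 2 and 3, with 22.9 and 16.4 FPKM. The rise was thus present in the main accession alone. Mrpl10 had no counts in any sample, so that the count table could not be used for it. Its partner on the other strand, Lrrc46, was also higher, at 0.933 FPKM in the controls and 3.98 FPKM in the shCTCF group (log2 fold change 1.38, limma adjusted p = 0.000108).

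Of the members with the highest mean level, Mrpl42 was lower, Mrpl30 was not called, and Mrpl33 was near the threshold. Mrpl42 had 121.5, 114.3 and 136.1 FPKM in the controls and 80.03, 67.8 and 76.3 FPKM in the shCTCF group, with no overlap and a log2 fold change of -0.72 ± 0.09 (SE, limma adjusted p = 0.000182). Mrpl30 had 117.1, 113.7 and 129.2 FPKM in the controls and 118.1, 118.9 and 114.4 FPKM in the shCTCF group. These values overlapped, the log2 fold change was -0.03 ± 0.07 (SE, limma adjusted p = 0.68), and its sign turned with scaling to the median, where it was 0.15. Mrpl33 had 87.0, 61.2 and 97.3 FPKM in the controls and 113.2, 113.6 and 97.0 FPKM in the shCTCF group. Control replicate 3 and shCTCF replicate 3 overlapped, and its rise of 0.42 ± 0.16 (SE, limma adjusted p = 0.0482) lost the call under most other settings of the FPKM test. In the count table its rise was 0.45 (edgeR adjusted p = 0.00566).

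Some members were limited by the data. Mrpl48 was under the filter, with 5.73 FPKM in control replicate 2 and 0 in all other samples. Mrpl1 was not called, and its control replicate 2, with 9.78 FPKM, stood apart from the other controls at 27.0 and 25.6 and from the shCTCF group at 21.0, 21.9 and 22.3 FPKM. Mrps36, the subunit of the 2-oxoglutarate dehydrogenase complex, fell from 16.6 ± 2.26 to 9.24 ± 1.78 FPKM (SD, n = 3), with a log2 fold change of -0.79 ± 0.15 (SE, limma adjusted p = 0.00205).

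The deposited count table gave a check of the quantification, for the members it could measure. It came from the same libraries as the FPKM values, so that agreement between them is not independent evidence. A fragment that overlapped more than 1 accession was not assigned in that table, and the members fell into 53 with 1 accession and 25 with more. All 53 with 1 accession were tested on counts. Of the 25 others, 6 were tested, 22 had at most 28 counts in any sample, and 8 had no counts. In the edgeR test of the 59 members, 36 were lower and 7 were higher. The background among the 7341 genes tested in this table was 69.1% in either direction, with 34.3% lower and 34.8% higher, and the median log2 fold change was -0.44 over the members and -0.02 over all genes. A log2 fold change of at least 1 in size was reached by 12 members downward and 1 upward, with 14% and 18.7% of all genes as background. Counts scaled to the library did not overlap between the groups for 37 lower and 8 higher members (background 35% and 36.2%). All of the 36 called lower were also lower on FPKM. Mrpl33, Mrpl41 and Mrps18a were higher in both tables, and no member was called in opposite directions. The other 20 comprised 9 that were lower on FPKM but not called on counts, 4 that were higher on counts but not called on FPKM (Mrpl15, Mrpl49, Mrps18c and Mrps6), and 7 called in neither. The exons of 11 members overlap those of another gene, among them Mrps6 with Slc5a3 and Mrpl49 with Syvn1, and their values are uncertain for this reason. Over the 53 members with 1 accession, a comparison added after the data had been seen, the median log2 fold change on FPKM was -0.68.

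**Figure D4:**
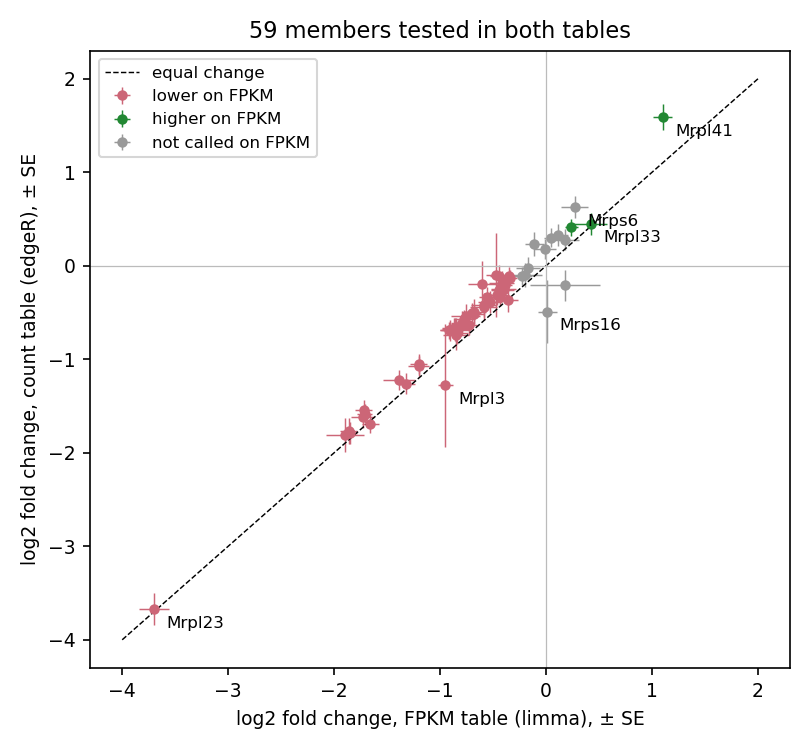
Log2 fold change of the 59 members tested in both tables, from limma on FPKM (horizontal axis) and from edgeR on counts (vertical axis), with standard errors; the dashed line marks equal changes. In 54 of the 59 the point lies above the line, Mrpl23 is at -3.70 and -3.67, and the longest vertical error bar is that of Mrpl3, which had at most 25 counts in a sample.

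Other genes of mitochondrial translation were lower as well. All 5 of the further proteins of the mitochondrial ribosome with other names were lower, with a median of -0.97. Gadd45gip1, a large subunit protein at the tunnel exit, had 41.2, 45.9 and 38.8 FPKM in the controls and 19.3, 14.8 and 14.3 FPKM in the shCTCF group (-1.34 ± 0.12, SE, limma adjusted p = 3.26e-05). Dap3, a GTP-binding protein of the small subunit, fell from 16.7 ± 0.954 to 7.64 ± 0.524 FPKM (-1.03 ± 0.09), and Ptcd3, an RNA-binding protein of the small subunit, from 21.4 ± 5.21 to 10.2 ± 0.368 FPKM (-0.97 ± 0.17), although the call of Ptcd3 on FPKM was lost when only its highest accession was used (limma adjusted p = 0.0749). The list of translation factors also held Oxa1l (-1.45) and Letm1 (-0.98), membrane proteins that are not such factors. Medians without them were not calculated. Of the 14 genes tested in this list, 11 were lower and 0 higher, and the median was -1.09, the lowest of the lists described here. On counts, 8 of 11 were lower, with a median of -0.81. None (0) was higher at an unadjusted p under 0.05 in limma or in edgeR. The elongation factors were among the largest falls. Gfm1, which moves the ribosome along the mRNA, had 47.8, 47.0 and 47.1 FPKM in the controls and 16.2, 15.9 and 14.3 FPKM in the shCTCF group (-1.56 ± 0.07, SE, limma adjusted p = 1.04e-06). Tufm, which brings tRNAs to the ribosome, fell from 78.1 ± 12.6 to 27.3 ± 1.88 FPKM, and Tsfm, which recharges Tufm, from 32.0 ± 6.05 to 10.9 ± 1.21 FPKM (SD, n = 3).

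The genes that build and supply the ribosome were mostly called lower on FPKM, where 44.2% of all genes were. Of 22 assembly factors tested, 15 were lower and 2 higher, with a median of -0.43. On counts, 7 of 17 assembly factors (41.2%) were lower and 2 higher, with a median of -0.24, which is close to the background of 34.3% lower in that table. Noa1, a GTPase of small subunit assembly, had the largest fall among them, from 52.9 ± 0.912 to 14.3 ± 1.19 FPKM (-1.83 ± 0.08), and the GTPase gene Mtg1 (-1.31 ± 0.12) and Rcc1l (-1.31 ± 0.13) followed. Of 17 mitochondrial tRNA synthetases, 15 were lower and 0 higher, also at an unadjusted p in limma and edgeR, with a median of -0.76, and on counts 5 of 9 were lower. The synthetase genes for valine, alanine and threonine fell most, with log2 fold changes of -2.09 ± 0.10 for Vars2, -1.74 ± 0.13 for Aars2 and -1.69 ± 0.10 for Tars2. Of 16 genes that copy, transcribe or process the mitochondrial genome, 13 were lower and 0 higher, with a median of -0.76, and 7 of 10 were lower in the count table. At an unadjusted p under 0.05 limma also gave 0, whereas edgeR called 1 higher, Slirp (0.71, adjusted p = 0.00649), which was at 0 FPKM in control replicate 2. Polg, the DNA polymerase (-1.47 ± 0.11), Lrpprc, which stabilizes mitochondrial mRNAs (-1.18 ± 0.09), and Tfam, which packs the DNA and starts its transcription (-1.01 ± 0.10), fell most.

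Of 9 nuclear factors tested that are known to drive such genes, 6 were lower on FPKM and 1 higher, with a median of -0.53. Among all genes tested on FPKM, 44.2% were lower and 28.8% higher. On counts, 2 of 4 were lower and 2 higher, beside 34.3% and 34.8% of all genes. Gabpa, an ETS factor, had 27.2, 24.96 and 22.6 FPKM in the controls and 9.86, 11.1 and 10.7 FPKM in the shCTCF group (-1.17 ± 0.09, SE, limma adjusted p = 1.43e-05). Nrf1 had 19.1, 23.5 and 17.6 FPKM in the controls and 8.09, 10.2 and 9.85 FPKM in the shCTCF group (-1.02 ± 0.13, SE, limma adjusted p = 0.000196), but when only the accession with the highest level was used, the change was -0.43 and not called (adjusted p = 0.134). Both were lower in every shCTCF sample. Myc fell from 184.1 ± 21.0 to 127.0 ± 5.42 FPKM (-0.53 ± 0.09, limma adjusted p = 0.000875). Yy1 was at 72.0 ± 1.58 FPKM in the controls and 76.5 ± 1.73 FPKM in the shCTCF group and was not called on FPKM (adjusted p = 0.208), whereas on counts it was higher by 0.25 (edgeR adjusted p = 0.0053), as it was on FPKM with a common median (0.27). Esrra, an estrogen-related nuclear receptor of energy metabolism, rose from 8.08 ± 0.456 to 15.8 ± 0.737 FPKM (0.89 ± 0.08, limma adjusted p = 3.21e-05). Of the coactivators, Ppargc1b had 3.09 ± 0.722 and 2.03 ± 0.217 FPKM (-0.42 ± 0.15, limma adjusted p = 0.0344, a call that was lost in several other settings), and Ppargc1a was under the filter, at most 0.0271 FPKM in the controls and 0.237 to 0.514 FPKM in the shCTCF group.

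The members were set beside the ribosome of the cytosol and the respiratory chain, whose core subunits the mitochondrial ribosome makes. Of 74 cytosolic ribosomal protein genes tested, 50 were lower and 3 higher, with a median log2 fold change of -0.37, and their summed FPKM was 77.4% of the control. Of 77 nuclear genes for respiratory chain subunits, 51 were lower and 1 was higher, with a median of -0.48, and their summed FPKM was 72.5%. These calls were made on FPKM, where 44.2% of all genes were lower and 28.8% higher. On counts, 33 of 63 cytosolic ribosomal protein genes were lower and 7 higher, with a median of -0.21. Of 54 respiratory chain genes tested on counts, 28 were lower and 6 higher, with a median of -0.26. The background on counts was 34.3% lower and 34.8% higher. The summed FPKM was 43.6% of the control for the list of translation factors, which includes Oxa1l and Letm1. It was 55.6% for the ribosomal proteins with other names, beside 68.6% for the members. The difference between the lists was not tested.

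**Figure D5:**
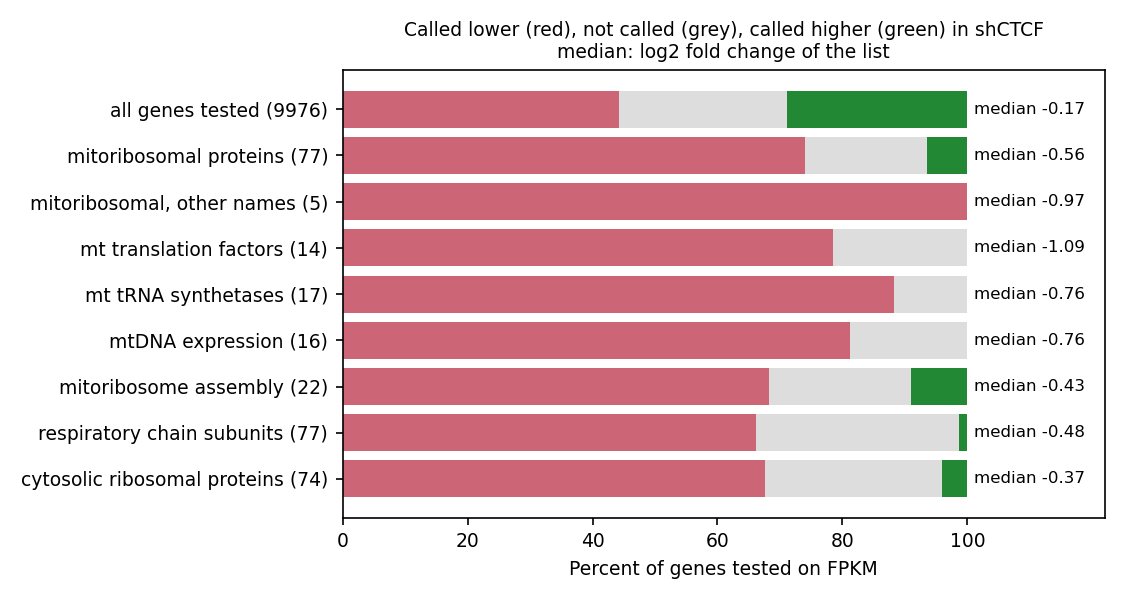
Percent of the genes of each list that were called lower (red), not called (grey) or called higher (green) on FPKM, with the number tested in brackets and the median log2 fold change at the right. The share called lower is 44.2% over all genes and 74.0% over the members. The median is lowest for the list of translation factors, at -1.09, and this list includes Oxa1l and Letm1.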

How the data were processed

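RNA-seq libraries of 3 control and 3 shCTCF samples, made with a stranded mRNA kit, were aligned to mm9 by the authors with HISAT2. The authors deposited FPKM values, calculated with Cufflinks 2.2.1 per RefSeq accession, and raw counts of fragments per accession, made with featureCounts without use of strand and without assignment of fragments that overlapped more than 1 accession. Accessions were given symbols from a RefSeq table of assembly GRCm38.p6, used with mm9 data for names only, which matched 41685 of 41876 FPKM rows and 41186 of 41388 count accessions. Counts without a symbol made up no more than 0.603% in any sample. FPKM and counts were summed per symbol. No value column was left without a sample.

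Limma 3.58.1 (lmFit, eBayes with trend) was run on log2(FPKM + 1) of genes whose mean reached 1 FPKM, and this scale understates the change of low genes. Counts were tested with edgeR 4.0.16 (TMM, filterByExpr, quasi-likelihood) in R 4.3.3. Tests were two-sided with Benjamini-Hochberg adjustment over all genes tested, and adjusted p under 0.05 was the threshold. The scripts were tested on simulated data. Total counts of 1686052 to 7044272 put 3 counts at 0.426 to 1.78 CPM, which covers counting error only. Replicates differed by more than counting noise (chi-square per degree of freedom 2.04 to 8.18).

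The members, the gene lists and the rule for named genes were chosen with earlier results of these data known. The rule named, among members called on FPKM without overlap of the groups, the 10 largest falls and up to 10 largest rises (3 were found), the 5 highest mean levels, members called in opposite directions in the tables (0), those under the filter, the stalk pair, Mrps36, Ctcf, 6 regulators, and the 3 largest changes in each other list. Members outside this rule are named by class or by the result they belong to. Replicate numbers are shared by both groups in the labels, but they did not pair the samples. Alternatives were other pseudocounts, filters, scalings, summaries of accessions, DESeq2 1.42.0, a replicate block and the omission of each replicate.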

Additional observations from a re-analysis of the deposited data

How the results depend on the processing

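Of 986 comparisons of single genes with their reported value under another setting, 958 stayed as reported in direction and call, 21 lost the call, 3 gained it and 4 turned sign. The turns were all of Mrpl30 on FPKM, with log2 fold changes of 0.15 with scaling to the median, 0.034 with quantile normalization and 0.12 with the highest accession, and between -0.070 and 0.021 when a replicate was left out. The median log2 fold change of the members was -0.39 with scaling to the median, -0.41 with quantile normalization, -0.44 in the count table and -0.68 with 1 accession only. In the count table it was -0.61 with scaling by library size only. The count table tests fewer genes, and it called 36 members lower in place of 57, and in the other mitochondrial lists it called 37 genes in either direction (32 lower) in place of 68 (65 lower). The summed FPKM of the members changed by -22.1% with scaling to the median. The number of members called higher on FPKM was 10 with scaling to the median, 9 with quantile normalization and 3 without a filter. The cause was not tested. Leaving out a replicate gave 55 to 59 members lower on FPKM and 31 to 39 on counts, and without control replicate 2, the smallest library, 59 were lower. DESeq2 called 29 members lower. The shares of all genes called by DESeq2, with other scalings or filters, with the replicate block or without a replicate are not given here. The counts of members in those settings thus have no background. With the replicate block, 57 members were lower on FPKM, 62 were called in either direction and 42 on counts; the pairing changed the calls of Mrpl33 on FPKM (adjusted p = 0.053) and Ppargc1b on FPKM (adjusted p = 0.0582) among the genes named. Same-numbered samples had correlations of their deviations of -0.041, 0.018 and 0.0395, and 1 of 3 controls correlated best with its own number. In the count table, 19 members had too few counts to be tested.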
